A study of Homo sapiens with 12 samples.

Results

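IFI27 and 7 further small genes named for their induction by interferon, IFI27L1, IFI27L2, IFI6, IFI35, IFI44, IFI44L and IFI30, were followed through all 12 RNA-seq libraries of the study. These 8 genes, of 43769 in the count table, were found by name. IFI27 had been selected on its measured decrease in the libraries that received IFNγ and doxycycline against those that received IFNγ alone, and the others were taken because of their names. Among the 90 genes called lower there that had a mean of at least 1 CPM (counts scaled to library size) and groups that did not overlap, IFI27 stood at rank 5 with a log2 fold change of -1.81, just after TRNP (-1.88) and just before TRNN (-1.76). That comparison is therefore only described below, and nothing is read from the calls and p-values given for it.

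The libraries came from a clonal SK-N-DZ line, a human neuroblastoma line with MYCN amplification and wild-type ARID1A, that carries a doxycycline-inducible hairpin against ARID1A, a DNA-binding subunit of the SWI/SNF chromatin remodelling complex. All 4 groups of 3 libraries therefore carry the hairpin construct. Group C received neither agent, group D received doxycycline for 4 days (its cells are labelled shARID1A), group I received IFNγ for 24 h, and group DI received both. No library had doxycycline without the hairpin, so the antibiotic, the hairpin and any loss of ARID1A cannot be told apart. ARID1A itself measured 197, 186 and 165 CPM in C, 197, 159 and 158 CPM in D, 192, 203 and 194 CPM in I, and 151, 133 and 148 CPM in DI. Its mRNA was not called different between D and C (log2 fold change -0.09, adjusted p = 0.788 in edgeR's quasi-likelihood test), so the RNA does not show a knockdown in the libraries labelled D, and protein was not measured in these files. The authors reported ARID1A loss in SK-N-DZ knockdown cells by qPCR and by Western blot, assays that are not part of these files. In DI against I it was -0.44 (adjusted p = 0.115 in edgeR), and it was called lower with the replicate block. Total counts per library ran from 16469832 to 21790869, and 3 counts, taken as the detection floor, equal 0.135 to 0.187 CPM. Of 10 neuroblastoma markers 9 exceeded 1 CPM in every library, with TH down to 0.695 CPM, and their summed level lay between 4549 and 5927 CPM. The 8 leukocyte and macrophage markers summed to at most 1.25 CPM with CD3E at 0, and the 7 fibroblast and endothelial markers to 3.49 to 29.5 CPM with PECAM1 at 0. The 13 mitochondrially encoded mRNAs took between 0.768 and 2.58% of the counts in the 6 libraries with doxycycline (at most 1.30% in D) and between 2.90 and 4.99% in the 6 without. These shares moved with doxycycline, and their part in any result below was not tested.

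IFNγ binds a receptor that activates the kinases JAK1 and JAK2, and the signal reaches genes with GAS elements, among them IRF1. Type I interferons act through a complex that includes STAT2 and IRF9 and binds the interferon-stimulated response element (ISRE), a site that IRF1 can also bind. IFI27, IFI27L1, IFI27L2 and IFI6 form a family of small hydrophobic proteins. IFI27 is a widely used blood marker of viral infection, and IFI6 has been described as an inhibitor of apoptosis and of flavivirus replication. IFI44 and IFI44L are paralogs in the cytoplasm, IFI35 is a leucine zipper protein that binds NMI, and IFI30 (GILT) is the lysosomal thiol reductase that reduces disulfide bonds of antigens bound for MHC class II.

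IFI27 (ENSG00000165949) lies on the plus strand of chromosome 14 (GRCh38, 94104836 to 94116698). IFI27L1 ends 989 bp upstream of it on the same strand, and IFI27L2 lies 11080 bp downstream on the opposite strand. IFI44L and IFI44 stand in tandem on chromosome 1, 3650 bp apart and on the same strand. IFI6 (chromosome 1), IFI35 (chromosome 17) and IFI30 (chromosome 19) lie alone.

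The promoter sequences are shown because the members fall into those whose promoter holds a letter match to an ISRE and those whose promoter does not. Each window runs from 250 bases before to 50 bases after the first annotated start, on the strand of the gene, and comes from RefSeq (GRCh38.p14). All 8 members were found there. The RefSeq start of IFI27 lies inside the GENCODE span given above, which begins further upstream, so the gap to IFI27L1 and the window shown use different starts. Capitals mark GAAA, any 2 bases and GAAA again, on either strand, called ISRE-like here, which occurs in 3.57% of 35116 such promoters. TTCNNNGAA, called GAS-like, reads the same on both strands in its fixed letters and occurs in 7.66%.
IFI27 (chr14:94110486-94110785, plus strand): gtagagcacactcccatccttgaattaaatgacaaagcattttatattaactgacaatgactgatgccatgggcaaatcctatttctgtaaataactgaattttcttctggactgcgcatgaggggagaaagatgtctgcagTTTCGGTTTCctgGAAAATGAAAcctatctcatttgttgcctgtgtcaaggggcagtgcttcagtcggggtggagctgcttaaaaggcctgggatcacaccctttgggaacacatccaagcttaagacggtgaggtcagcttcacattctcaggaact
IFI6 (chr1:27672143-27672442, minus strand): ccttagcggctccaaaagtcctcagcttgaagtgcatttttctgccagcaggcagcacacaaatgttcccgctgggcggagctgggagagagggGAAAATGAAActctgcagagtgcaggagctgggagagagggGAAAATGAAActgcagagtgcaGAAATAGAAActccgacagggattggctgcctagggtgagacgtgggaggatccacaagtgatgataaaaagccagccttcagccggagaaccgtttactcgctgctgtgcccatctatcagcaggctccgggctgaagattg
IFI44L (chr1:78620198-78620497, plus strand): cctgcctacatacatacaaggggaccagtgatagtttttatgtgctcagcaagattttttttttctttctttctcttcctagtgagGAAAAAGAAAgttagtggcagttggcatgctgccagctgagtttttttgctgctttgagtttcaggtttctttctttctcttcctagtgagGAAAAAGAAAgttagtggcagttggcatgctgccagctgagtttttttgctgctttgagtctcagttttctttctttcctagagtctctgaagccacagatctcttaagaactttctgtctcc
IFI44 (chr1:78649539-78649838, plus strand): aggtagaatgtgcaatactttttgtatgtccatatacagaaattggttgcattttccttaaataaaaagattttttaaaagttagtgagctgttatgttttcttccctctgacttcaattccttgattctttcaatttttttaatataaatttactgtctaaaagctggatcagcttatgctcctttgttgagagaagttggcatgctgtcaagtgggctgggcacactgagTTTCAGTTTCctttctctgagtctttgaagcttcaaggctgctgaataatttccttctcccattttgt
IFI35 (chr17:43006534-43006833, plus strand): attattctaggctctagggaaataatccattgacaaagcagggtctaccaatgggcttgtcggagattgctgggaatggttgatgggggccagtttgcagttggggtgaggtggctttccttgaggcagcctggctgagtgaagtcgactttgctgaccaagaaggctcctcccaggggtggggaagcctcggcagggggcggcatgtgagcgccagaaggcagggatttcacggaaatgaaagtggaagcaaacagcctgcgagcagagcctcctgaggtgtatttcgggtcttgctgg
IFI27L2 (chr14:94129555-94129854, minus strand): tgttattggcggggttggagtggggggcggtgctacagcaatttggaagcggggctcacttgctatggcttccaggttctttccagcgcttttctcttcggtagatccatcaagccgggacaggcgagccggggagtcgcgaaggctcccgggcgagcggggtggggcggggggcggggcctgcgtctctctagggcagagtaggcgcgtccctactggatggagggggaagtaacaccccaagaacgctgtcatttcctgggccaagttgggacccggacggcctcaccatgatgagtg
IFI27 held 2 ISRE-like matches, TTTCGGTTTC at 108 to 99 and GAAAATGAAA at 95 to 86 bases upstream of the start. A GAS-like match, TTCCTGGAA at 101 to 93, overlapped both. The same GAAAATGAAA stood at 156 to 147 and at 115 to 106 in IFI6, inside 2 copies of a 29-base run (ggagctgggagagagggGAAAATGAAAct) that begin 41 bases apart, and GAAATAGAAA followed at 93 to 84. In IFI44L, GAAAAAGAAA occurred at 164 to 155 and at 73 to 64, within 2 identical copies of an 85-base run. IFI44 held 1 match (TTTCAGTTTC, 18 to 9), and the longest run it shared with IFI44L was 13 bases (agttggcatgctg). IFI35 held no ISRE-like match and 1 GAS-like match (TTCACGGAA, 22 to 14). IFI27L1, IFI27L2 and IFI30 held neither in this window.

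**Figure D1:**
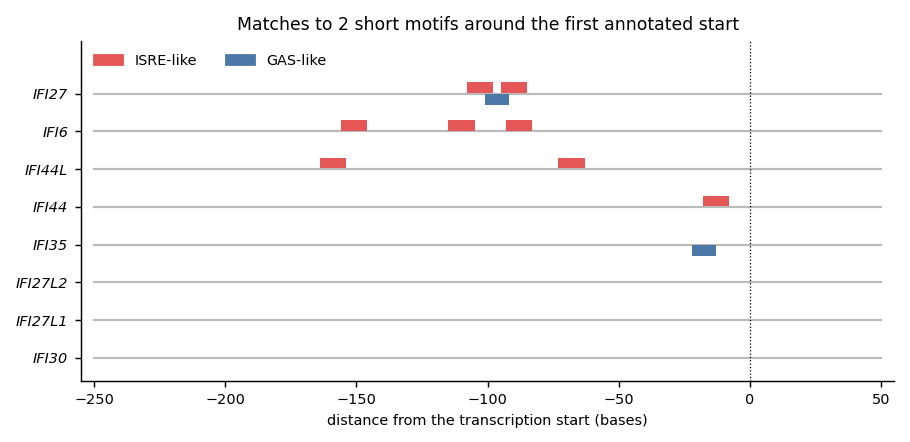
Matches to GAAA, any 2 bases, GAAA (ISRE-like, red) and TTCNNNGAA (GAS-like, blue) on either strand, by distance in bases from the first annotated start (dotted line), for the 8 genes. IFI6 holds 3 ISRE-like matches, IFI27 and IFI44L hold 2 each, IFI44 holds 1, and IFI35, IFI27L2, IFI27L1 and IFI30 hold no ISRE-like match.

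In cells without IFNγ the gene that gives the group its name was near the floor. IFI27 measured 0.430, 0.298 and 1.18 CPM in the 3 C libraries and 0.620, 0.569 and 0.290 CPM in the 3 D libraries. With IFNγ it reached 85.0, 94.9 and 108 CPM in I and 31.3, 28.9 and 22.0 CPM in DI. Every library with IFNγ lay above every library without it, and every DI library lay below every I library. The fold from C to I was 157 by summed counts (95% interval 111 to 230), and that from D to DI was 53.9 (37.4 to 80.7). These intervals cover counting error only. In bulk RNA a change in the share of cells that express a gene and a change in the RNA per cell cannot be told apart.

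IFI6, the family member on another chromosome, showed the same order of groups. It measured 0.430, 0.695 and 0.0623 CPM in C and 0.191, 0.259 and 0.348 CPM in D. It rose to 31.1, 45.1 and 27.9 CPM in I and to 9.65, 13.2 and 10.9 CPM in DI. The 4 IFI6 groups separated like those of IFI27, with I highest, DI below it, and C and D overlapping near the floor. GENCODE places an antisense gene over IFI6 that is not in the count table, and whether reads were counted by strand is not given in the sources used here.

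The chromosome 14 neighbors behaved differently from IFI27, which they flank. IFI27L1 measured 5.10, 4.52 and 4.86 CPM in C, 4.96, 4.86 and 5.04 CPM in D, 5.94, 4.85 and 5.66 CPM in I, and 6.37, 6.87 and 7.57 CPM in DI. Its I libraries overlapped C and D, and its DI libraries stood above all others. IFI27L2 measured 6.39, 4.37 and 4.36 CPM in C, 3.34, 3.21 and 4.46 CPM in D, 7.37, 6.60 and 8.54 CPM in I, and 6.57, 5.79 and 6.85 CPM in DI. Its I libraries all exceeded C and its DI libraries all exceeded D, by margins far below those of IFI27. DDX24 and PPP4R4, the nearest tested genes beyond the cluster, were not called (log2 fold changes with IFNγ of -0.01 and 0.14, adjusted p = 0.996 and 0.977 in edgeR).

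IFI35 had the fewest counts in C of the 7 genes that passed the filter on low counts. It measured 0, 0.0993 and 0.125 CPM in C and 0.238, 0.311 and 0.116 CPM in D, which are 4 counts in all of C and 13 in all of D. It reached 83.6, 81.1 and 90.9 CPM in I and 51.6, 43.8 and 57.2 CPM in DI. The ratio of I to C was 1117 by summed counts, with a counting interval from 436 to 4102, and that of DI to D was 227 (132 to 426). RPL27 and VAT1, the flanking genes, of which VAT1 lies 149 bp away, were not called (log2 fold changes of -0.04 and -0.09, adjusted p = 0.977 and 0.971 in edgeR).

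IFI44 and IFI44L, the tandem paralogs, rose with IFNγ but spread widely among libraries. IFI44 measured 0.184, 0.0497 and 0.187 CPM in C, 0 in each D library, 17.4, 38.6 and 13.9 CPM in I, and 5.75, 13.8 and 3.60 CPM in DI. Its level in DI was at least 49.0-fold higher than in D, taking 3 counts per library as the floor, and the ratio of I to C was 172 (83.4 to 429). IFI44L measured 0.676, 4.87 and 0 CPM in C, 0.524, 2.59 and 0.174 CPM in D, 34.5, 76.9 and 9.90 CPM in I, and 15.8, 40.9 and 4.05 CPM in DI. The lowest DI library of IFI44L was below the highest C library, so the libraries with and without IFNγ overlapped for this gene.

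IFI30 stayed at or near the detection floor in every library. It had 20 counts in all 12 libraries, namely 1, 0 and 0 in C, 0 in each D library, 4, 2 and 1 in I, and 0, 6 and 6 in DI. It did not pass the filter on low counts. The libraries with IFNγ held 19 of its counts and those without held 1, a difference with p = 0.0281 in a two-sided exact permutation test of CPM over 924 regroupings, the smallest possible p being 0.00216. When signs were permuted within the 6 pairs of the same replicate number and doxycycline arm, 5 of which were higher with IFNγ and 1 equal, the exact two-sided p was 0.0625 (smallest possible 0.0312). With 3 libraries against 3 no p can fall below 0.1, and I against C gave p = 0.2 and DI against D p = 0.4 (exact permutation). GENCODE also places a readthrough gene over IFI30 on the same strand, which is not in the count table, so its reads may be shared. None of the nearest tested genes beside IFI30 (MAST3 and MPV17L2) and IFI6 (AHDC1 and FAM76A) was called with IFNγ, with adjusted p from 0.653 to 0.996 in edgeR.

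**Figure D2:**
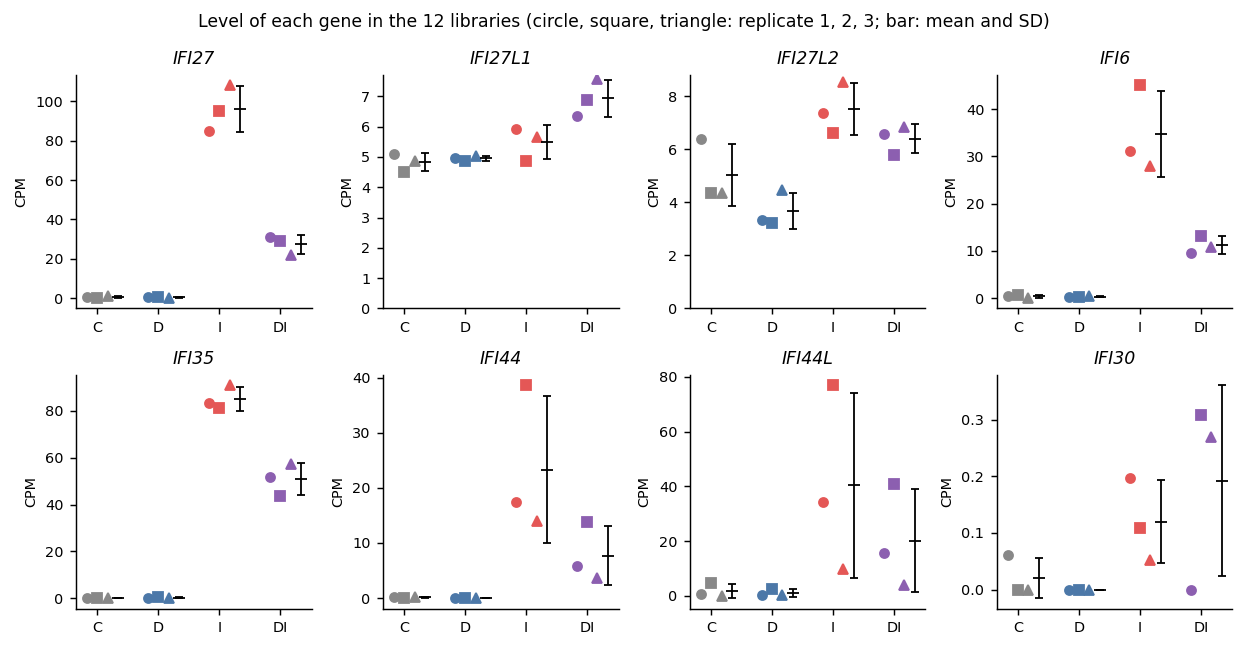
Level of each of the 8 genes in CPM (linear axis, a scale of its own per gene) in the 12 libraries by group; circles, squares and triangles are replicates 1, 2 and 3, and the black bar is the mean ± SD (n = 3). IFI27 lies between 85.0 and 108 CPM in I and between 22.0 and 31.3 CPM in DI, while IFI27L1 stays between 4.52 and 7.57 CPM in all groups.

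Levels can be compared between genes only per length. With the union of annotated exons as the length, the order in I by CPM per kilobase was IFI35 (43.2 ± 2.57, SD, n = 3), IFI6 (40.1 ± 10.6), IFI27 (23.2 ± 2.81), IFI44 (11.4 ± 6.54), IFI27L2 (4.52 ± 0.588), IFI44L (3.95 ± 3.31), IFI27L1 (2.30 ± 0.236) and IFI30 (0.0483 ± 0.0296). The libraries of IFI35 and IFI6 overlapped, as did those of IFI27L2 with IFI44L and IFI44L with IFI27L1. IFI27, whose exon union spans 4147 bp, moved from rank 3 to rank 1 (155 ± 18.8) when the median protein-coding transcript was the length, a choice made after seeing the data. In C the 2 quiet paralogs led, IFI27L2 with 3.03 ± 0.704 and IFI27L1 with 2.03 ± 0.123, and every other member lay at or under 0.458 CPM per kilobase of exon union.

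The effect of IFNγ was tested as the mean of both arms (I and DI against C and D), a contrast that does not use the difference between DI and I by which IFI27 was chosen. Of the 7 tested members 6 were called higher, where 3.41% of 15828 tested genes were, and none was called lower. With C and D alone 4 members passed the filter, and IFI6, IFI35 and IFI44 did not. These genes entered the test through their libraries with IFNγ, so a higher call was nearly fixed in advance. Nothing is read from the count of 6. The log2 fold change was 8.89 ± 0.24 (SE) for IFI35, 8.78 ± 0.69 for IFI44, 6.51 ± 0.28 for IFI27 and 5.89 ± 0.35 for IFI6, with adjusted p from 2.27e-09 to 5.66e-05 in edgeR, and these 4 had groups that did not overlap (2.98% of tested genes did so in this direction). The value for IFI44 rests on D libraries at 0 and so depends on the prior count of the fit. IFI44L (4.29 ± 0.96, adjusted p = 0.0293 in edgeR) and IFI27L2 (0.69 ± 0.16, adjusted p = 0.0356) were called with less room. IFI44L lost its call in 7 and IFI27L2 in 10 of the 12 fits that left out 1 library. IFI27L1 was not called (0.33 ± 0.12, adjusted p = 0.243). The median over the 7 members was 5.89, also with IFI44 at its floor bound, beside -0.01 over all tested genes.

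Within each arm these 4 non-overlapping genes were called. Both contrasts share libraries with the comparison that chose IFI27, and the limit set by the filter holds for the counts of members here too. In I against C these were IFI35 (log2 10.01 ± 0.36), IFI44 (7.36 ± 0.80), IFI27 (7.26 ± 0.41) and IFI6 (6.38 ± 0.50), 4 of 7 where 2.10% of tested genes were called higher. With the replicate number as a block, since libraries with the same number deviated together, IFI44L was called too (4.79 ± 0.38, adjusted p = 1.44e-05), 5 of 7 beside 4.88%. In DI against D the values were 7.78 ± 0.31 for IFI35, 5.76 ± 0.40 for IFI27, 5.39 ± 0.50 for IFI6 and 10.20 ± 1.15 for IFI44, whose D libraries are at 0, and 1.67% of tested genes were called higher. The block added IFI44L (4.33 ± 0.40, adjusted p = 5.94e-05) and IFI27L2 (0.81 ± 0.19, adjusted p = 0.0385), making 6 of 7 beside 3.77%. Groups did not overlap for 6 of 7 members in I against C (8.84% of tested genes) and for 7 of 7 in DI against D (5.77%). Without the 4 libraries of replicate number 1, which left 2 per group, 2 of 7 were still called in DI against D (IFI35 and IFI27), and IFI6 (adjusted p = 0.0566) and IFI44 (0.128) were not.

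**Figure D3:**
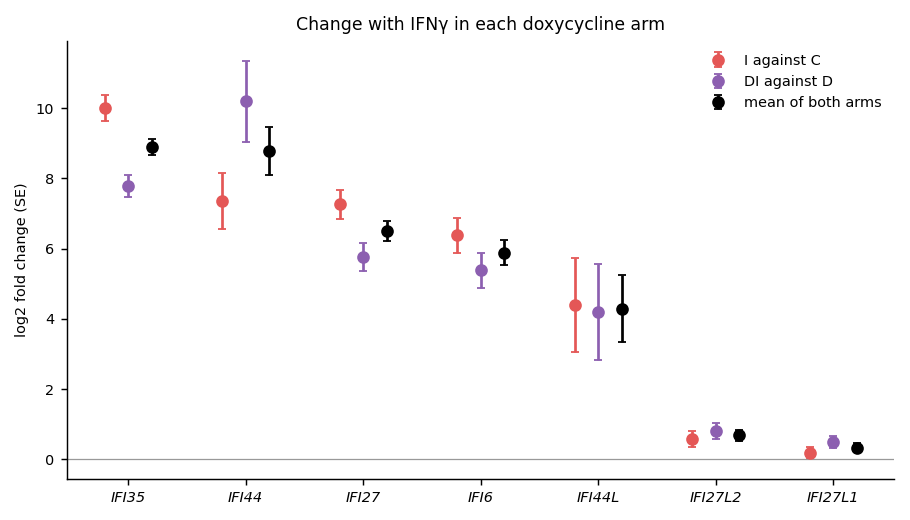
Log2 fold change (SE, edgeR) with IFNγ in the arm without doxycycline (I against C, red), the arm with it (DI against D, purple) and over both (black), for the 7 tested genes. IFI35 and IFI44 lie highest at 8.89 and 8.78 over both arms, and IFI27L1 lies nearest 0 at 0.33; the purple point of IFI44 is measured against D libraries at 0.

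Without IFNγ, none of the 7 tested members was called in the libraries labelled D against C, where 1.23% of tested genes were called. None was called by DESeq2, which called 825 of all genes, or with the replicate block, which called 2200. With C and D alone 4 members passed the filter, and IFI6, IFI35 and IFI44 did not, so low counts limit this result. At an unadjusted p under 0.05 in the fit over all 12 libraries there were 2 of 7 members, against 14.2% of tested genes. These were IFI35, higher in D with 13 counts against 4 (adjusted p = 0.321 in edgeR), and IFI44, with 0 counts in D against 7 in C (adjusted p = 0.299), whose libraries did not overlap (9.10% of tested genes did so in this direction). The difference for IFI27 was -0.31 on the log2 scale, with a 95% interval from -1.24 to 0.62. Its sign turned to 0.47 when C replicate 3, the highest of the unstimulated libraries at 19 counts, was left out.

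Between DI and I, the comparison that chose IFI27, the log2 difference was -1.81 ± 0.30 (SE) for IFI27, -1.62 ± 0.38 for IFI6, -1.60 ± 0.56 for IFI44, -1.0 ± 1.15 for IFI44L, -0.74 ± 0.20 for IFI35, -0.23 ± 0.22 for IFI27L2 and 0.34 ± 0.17 for IFI27L1. The libraries of DI lay wholly below those of I for IFI27, IFI6, IFI44 and IFI35 (8.41% of tested genes did so), and wholly above for IFI27L1 (8.17%). The 1 of 7 members called lower was IFI27 (0.569% of tested genes were), which was chosen for it, and 5 of 7 were with the replicate block (6.62%); nothing is read from these counts. The call of IFI27 was lost with only the groups compared (adjusted p = 0.0625 in edgeR) and on leaving out any 1 of the 6 I and DI libraries (0.057 to 0.125). The median over the members was -1.0 beside -0.01 over all tested genes.

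Within each replicate number, the level in DI as a share of that in I was 36.8, 30.4 and 20.3% for IFI27, 31.1, 29.3 and 39.0% for IFI6 and 33.0, 35.8 and 25.8% for IFI44. The shares of these 3 genes ran from 20.3 to 39.0%, and each lay below every one of IFI44L, IFI35, IFI27L2 and IFI27L1. IFI27 was chosen on this comparison and the 3 genes were grouped by these same values, so nothing is read from this order. IFI44L kept 45.7, 53.1 and 40.9%, a narrow range for a gene whose level differed by several fold between numbers. IFI35, with the highest log2 fold change over both arms, kept 61.7, 54.0 and 63.0%. IFI27L2 kept 89.1, 87.8 and 80.1%, and IFI27L1 stood at 107, 142 and 134%.

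**Figure D4:**
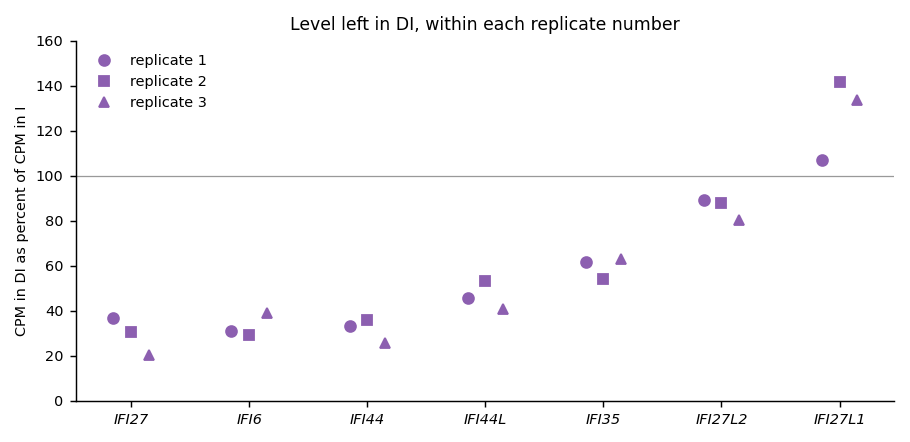
CPM in DI as a percent of CPM in I, within each replicate number, for the 7 tested genes (the line marks 100%). All shares of IFI27, IFI6 and IFI44 lie between 20.3 and 39.0%, and those of IFI27L1 between 107 and 142%. IFI27 was chosen on its difference between DI and I.

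Whether IFNγ acted differently in the 2 arms was asked with the interaction term, which contains the comparison that chose IFI27 and is likewise only described. Its log2 value was -1.50 ± 0.56 (SE) for IFI27, -0.99 ± 0.71 for IFI6 and -2.23 ± 0.61 for IFI35, the latter set by 4 counts in C. The values of IFI44 (2.84 ± 1.76) and IFI44L (-0.21 ± 1.80) rest on groups at or near 0 in some libraries. None of the 7 members was called, and 0% of the 15828 tested genes were. At an unadjusted p under 0.05 there were 2 of 7 members (0.625% of genes), a count that includes IFI27 itself and from which nothing is read, and DESeq2 called none of the members.

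The tandem pair on chromosome 1 followed the replicate numbers in the libraries with IFNγ, which IFI27 did not. IFI44L was highest in the number 2 library and lowest in the number 3 library of each of the 4 groups. IFI44 had this order only in I and DI. In C its number 2 library was the lowest (0.0497 CPM), and in D all its libraries were at 0. In a fit with the replicate number as a term, added after these values were seen, IFI44L differed between numbers 2 and 3 by 3.51 on the log2 scale (adjusted p = 7.58e-05 in edgeR) and IFI44 by 1.52 (adjusted p = 0.0094). PTGFR, the nearest tested gene before IFI44L, differed in the same direction by 1.16 (adjusted p = 0.000325). The other members did not pass, with adjusted p of 0.117 for IFI6, 0.308 for IFI27L2, 0.503 for IFI35, 0.68 for IFI27L1 and 0.987 for IFI27. The count of 2 of 7 members is below the 44.0% of tested genes that passed this test, and of 15828 genes 236 differed between numbers 2 and 3 by at least as much as IFI44L and 1077 by at least as much as IFI44. Among 30 tested genes of the wider ISRE-type list 13 passed, close to the share of all genes. Of the 30, 11 both passed and were higher in number 2 than in number 3, where 22.1% of all tested genes did both. What the numbers stand for is not given in the labels.

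**Figure D5:**
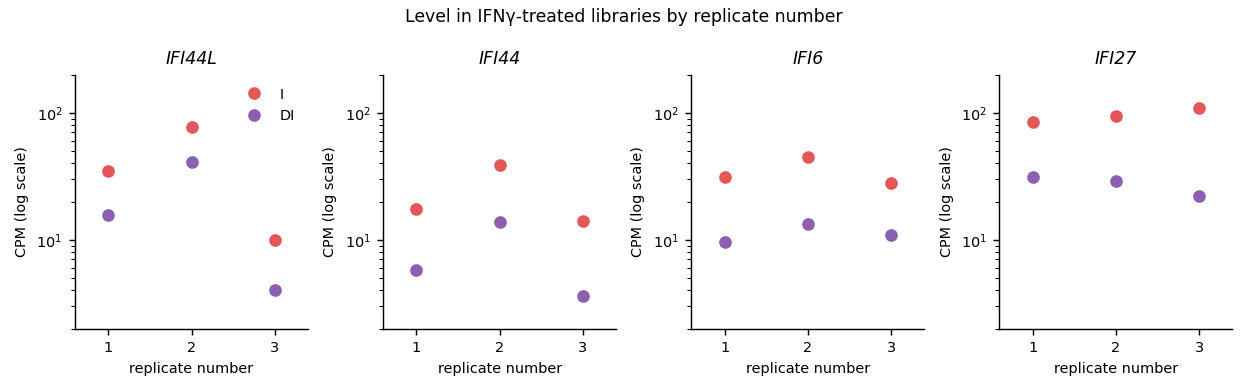
Level in CPM (log axis) of IFI44L, IFI44, IFI6 and IFI27 in the libraries with IFNγ, by replicate number, for I (red) and DI (purple). IFI44L runs from 76.9 CPM in number 2 to 9.90 CPM in number 3 of I and from 40.9 to 4.05 CPM in DI, while IFI27 stays within 85.0 to 108 CPM in I and 22.0 to 31.3 CPM in DI.

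A wider list of ISRE-type genes was drawn from general knowledge, with earlier results of these data known. Of 30 tested ISRE-type genes 29 were called higher over both arms (HERC5 was not, at 0.82 and adjusted p = 0.926 in edgeR), where 3.41% of all tested genes were. Their median log2 fold change was 5.42, or 5.06 with groups at 0 set to the floor. For 7 of the 30 all libraries of C or of D were at 0, so the limit set by the filter holds here too, and nothing is read from the count. LGALS3BP, a secreted glycoprotein, rose by 4.29 ± 0.16 (SE), PARP14, a mono-ADP-ribosyltransferase, by 7.08 ± 0.25, and ISG15, the ubiquitin-like modifier, by 4.06 ± 0.15.

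In DI against I all 30 ISRE-type genes had values below 0, from -1.85 (IFITM1) to -0.06 (RTP4) with a median of -0.62, and 3 were called lower (IFIT3, IFIT2 and DDX60), or 10 with the replicate block. Of all tested genes 0.569% were called lower, or 6.62% with the replicate block. Only IFITM1 had a lower value than IFI27 in that list, and 2 of the 30 had lower values than IFI6 and than IFI44. IFI35 lay mid-list with 13 below it. Of the 540 genes called higher with IFNγ, 5 had lower values in DI against I than IFI27, 11 than IFI6 and 13 than IFI44. IFI27 was chosen on this value, so its ranks here follow from that choice and nothing is read from them. In D against C, none of the 30 was called higher and 2 were called lower, LGALS3BP (-1.13, adjusted p = 0.0278 in edgeR) and SAMD9L (-4.27, adjusted p = 0.0168). With the replicate block ISG15 (-0.39, adjusted p = 0.0458) and PLSCR1 (-0.60, adjusted p = 0.0301) were called lower too, making 4. Of all 15828 tested genes the block called 2200 in D against C in either direction, beside 194 in the main fit. Nothing is read from these counts.

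Of 13 receptor and signaling genes 9 were called higher with IFNγ, where 3.41% of all tested genes were. IRF1 rose from 2.14 CPM in C to 411 CPM in I and 367 CPM in DI (group means), and STAT2 by 2.38 ± 0.15 on the log2 scale. JAK1, TYK2 and the receptor chains IFNGR1 and IFNGR2 were not called with IFNγ, but with the replicate block IFNGR2 was (0.23 ± 0.05, adjusted p = 0.0144 in edgeR). In DI against I 1 of the 13 genes was called, TYK2, which was higher (0.60 ± 0.11, adjusted p = 0.0341 in edgeR). Of 15828 tested genes 106 were called there in either direction. IRF9, the DNA-binding subunit of the type I complex, rose by 2.44 ± 0.27 and measured 4.94 CPM in I and 8.71 CPM in DI, a difference that was not called. In D against C none of the 13 was called in the main fit. With the replicate block 2 were called, both higher in D, namely TYK2 (0.43, adjusted p = 0.0130 in edgeR) and IRF9 (1.42, adjusted p = 0.0259). The block called 2200 of 15828 tested genes there in either direction. Among known protein partners of the members, NMI, the partner of IFI35, rose by 8.06 ± 0.60 and TRIM21 by 7.16 ± 0.29. SKP2 and NR4A1, reported partners of IFI27, and FKBP5, a reported partner of IFI44L, were not called (adjusted p = 0.991, 0.807 and 0.728 in edgeR).

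Most MHC class II genes, with whose products IFI30 acts, were also at or near the floor. Of 12 genes of that pathway 7 were tested and 3 were called higher, namely CD74, the invariant chain (2.42 ± 0.25), CIITA, the class II transactivator (1.56 ± 0.27) and CTSS, the protease cathepsin S (4.92 ± 0.58). Among all tested genes 3.41% were called higher with IFNγ. HLA-DRA, HLA-DRB1, HLA-DPA1, HLA-DPB1 and HLA-DMB did not pass the filter, and HLA-DRA averaged 0.0677 CPM in I and 0.312 CPM in DI. The lysosomal proteases CTSB, CTSL and LGMN were measured at 15.4 to 157 CPM as group means and were not called with IFNγ over both arms.

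The genes with the pattern most like that of IFI27 over the 12 libraries were SP110 (Pearson r = 0.993), APOL4 (0.990), DDO (0.988), LOC728743 (0.987) and DDX60 (0.986), in log2 CPM across libraries that share the 4 groups. Spearman rho was 0.954, 0.970, 0.935, 0.958 and 0.935 in the same order. The points share the gap between libraries with and without IFNγ, and the values are a description with no p. SP110, a nuclear body protein, measured 21.0 ± 6.47 CPM in I and 8.76 ± 2.02 CPM in DI (SD, n = 3), and DDX60, a helicase, 64.7 ± 5.15 and 26.2 ± 4.20 CPM. APOL4 measured 148 ± 44.0 and 69.6 ± 30.0 CPM, and DDO 2.49 ± 0.360 and 0.867 ± 0.154 CPM. LOC728743 was unlike IFI27 in size of change, with 7.86 ± 1.51 CPM in C, 33.7 ± 5.75 CPM in I and 27.5 ± 2.59 CPM in DI. Among the members IFI35 ranked 26, IFI44 35, IFI6 132, IFI27L2 488, IFI44L 498 and IFI27L1 1036 in likeness to IFI27.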

How the data were processed

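Gene counts of 12 libraries (3 each of C, D, I and DI) were analysed. The deposited values are raw read counts per gene, made by the authors from paired-end Illumina reads of total RNA. The aligner, counter, strand setting and genome build are not given in the sources used here. Positions and lengths came from GENCODE 29 (GRCh38), which holds each of the 43769 identifiers. The authors also deposited tables of their own group comparisons (fold changes and p-values), and 18 further per-library columns whose names match no label. Neither was used. Groups came from the sample labels, which do not say that replicates are separate cultures, so p-values measure only the spread between these samples. Replicates of a group differed beyond counting noise.

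Counts were scaled by TMM, filtered with filterByExpr (minimum count 10, leaving 15828 genes) and fitted over all 12 libraries with edgeR 4.0.16 (quasi-likelihood, limma 3.58.1, R 4.3.3). Tests were two-sided, and called means a Benjamini-Hochberg adjusted p under 0.05 over all tested genes. IFI30, which the filter removed, was compared by an exact permutation test. Ratios of summed counts have 95% exact binomial intervals. DESeq2 1.42.0, DESeq2 size factors, library size alone, no filter, only the groups compared, a replicate block, a threshold of 0.01 and leaving out each library were alternatives. Motifs were searched with Python 3.11.15. The model was tested on simulated data.

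The labels share replicate numbers without saying what they mark. After group means were removed, the 18 pairs of libraries with the same number in different groups correlated at 0.338 to 0.804 and the 36 with different numbers at -0.628 to 0.143, so the numbers were taken as pairing the libraries. Blocked values or counts are given where they change a call stated in the text. Calls of listed genes that the block changed in other comparisons are left out.

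Named were all members, the 5 genes most correlated with IFI27, the nearest tested gene within 200 kb on each side, up to 4 examples per list by mean level, and ARID1A. Genes named outside that rule (IRF9, TRNP, TRNN, IFITM1, RTP4, and the members of counts of 5 or fewer) were chosen after their values were seen. The members and lists were chosen with earlier results of these data known. Protein sequences were not used here, and results that need certain withheld genes are not reported here.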

Additional observations from a re-analysis of the deposited data

How the results depend on the processing

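The count of members called kept within 1.5 times of the reported one under every alternative for the IFNγ effect over both arms (4 to 6 of 7, the 4 being at a threshold of 0.01, in 5 of the fits that left out 1 library and without all 4 libraries of replicate number 1; without a filter 5 of 8), for I against C, for D against C (0 throughout) and for the interaction (0 throughout). For DI against D it ran from 2 to 4 when libraries were left out, the 2 being without all 4 libraries of replicate number 1. For DI against I, which chose IFI27, the count was 0 at a threshold of 0.01 and with only the groups compared, 3 by DESeq2, 5 with the replicate block, and 0 to 2 when libraries were left out, with 0 for each of the 6 I and DI libraries. Among the members, the replicate block changed no call beyond those counted in the report, and the cause of these changes was not tested. Without a filter IFI27L2 lost its call for the IFNγ effect (adjusted p = 0.101). With 1 library left out, the difference between D and C ran from -0.69 to 0.47 for IFI27 (the latter without C replicate 3), from -0.017 to 0.065 for IFI27L1, from -1.10 to 0.076 for IFI6 and from -2.39 to 1.68 for IFI44L (the upper end of the last pair, and the lower end for IFI27L1, without C replicate 2), and the interaction of IFI44L ran from -2.66 to 1.39, above 0 in 5 of 12 such fits. With rank correlation 3 of the 5 genes most like IFI27 were kept. The unstimulated levels of IFI27, IFI6, IFI35 and IFI44 rest on 0 to 19 counts per library.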
